A study of Mus musculus with 8 samples.

Results

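The S100 genes encode small calcium-binding proteins, and 10 of them were followed here in the mouse soleus muscle: S100a1, S100a4, S100a6, S100a8, S100a9, S100a10, S100a11, S100a13, S100a16 and S100b. They were picked out by symbol from the 22880 genes in the count files, and the list of symbols was drawn up with earlier results of these data known. RNA was sequenced from soleus muscles of 4 control mice, with 2 wild-type copies of Dnm2, and 4 Dnm2 wt/K562E mice, all male, on a C57BL/6 background (C57bl/6 J in the study's methods) and 2 months old. Dnm2 wt/K562E mice carry, in every tissue, 1 copy of Dnm2 with a point mutation that causes a form of Charcot-Marie-Tooth neuropathy in patients, and a LoxP site left by the targeting stays in an intron of that copy. The comparison asks which S100 transcripts differed between the genotypes in a muscle that the study examined for myopathy. Of the 10 genes, 8 had enough reads for the test, which is edgeR's quasi-likelihood test across 14001 genes, and "rose" or "fell" means an adjusted p under 0.05 (Benjamini-Hochberg over all of these genes). Levels are normalized CPM, the counts of a gene scaled to a common library size with TMM factors.

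S100 proteins form dimers through paired EF-hand calcium-binding loops, and calcium opens a surface on each subunit through which it grips a target protein. Inside cells they act on annexins, the cytoskeleton, calcium pumps and channels. Outside cells some act as alarm signals at receptors such as RAGE and Toll-like receptor 4. In striated muscle the best known member is S100a1, which binds the ryanodine receptor, the sarcoplasmic reticulum calcium pump and titin. S100a4 and S100a6 are familiar from fibroblasts and other motile cells, S100a8 and S100a9 from neutrophils, and S100b from glial cells including Schwann cells.

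Except for S100b on chromosome 10, all of the members lie on chromosome 3, so their order and promoters are given first. From S100a1 to S100a9 the genes span 184.7 kb. A gap of 2.82 Mb then separates them from S100a11 and S100a10, which lie together within 44.2 kb. S100a1 (chr3:90511034-90514392, minus strand) and S100a13 (chr3:90514435-90524581, plus strand) are head to head with only 42 bases between their gene models. Coordinates are of the mouse build GRCm38. RefSeq promoter windows of GRCm38.p6, 250 bases before to 50 after the start, were found for 9 of the 10 genes and none was found for S100a10. They were searched on both strands for TATAAA (the TATA box, found in 13.6% of all 32851 windows), CCAAT (37.4%), GGGCGG (a GC box, 35.7%) and TGANTCA (an AP-1 motif, 7.81%). Capitals mark each match. The windows below belong to the pair that shares a promoter region, to 2 of the members that rose, to S100a8 and to S100a11. They lie at chr3:90514281-90514580 (S100a1, minus strand), chr3:90514185-90514484 (S100a13, plus), chr3:90603520-90603819 (S100a4, plus), chr3:90612644-90612943 (S100a6, plus), chr3:90668821-90669120 (S100a8, plus) and chr3:93520246-93520545 (S100a11, plus).
S100a1: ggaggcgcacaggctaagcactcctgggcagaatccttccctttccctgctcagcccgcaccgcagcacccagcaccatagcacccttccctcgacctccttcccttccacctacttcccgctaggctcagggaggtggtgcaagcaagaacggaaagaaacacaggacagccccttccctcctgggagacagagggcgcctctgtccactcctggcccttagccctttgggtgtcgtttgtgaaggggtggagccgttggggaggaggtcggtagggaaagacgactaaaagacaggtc
S100a13: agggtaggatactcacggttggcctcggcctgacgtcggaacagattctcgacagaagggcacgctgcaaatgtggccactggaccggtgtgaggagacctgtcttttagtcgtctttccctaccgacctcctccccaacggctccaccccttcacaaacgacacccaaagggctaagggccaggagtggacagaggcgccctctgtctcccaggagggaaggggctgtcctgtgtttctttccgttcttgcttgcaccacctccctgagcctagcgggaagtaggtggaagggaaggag
S100a4: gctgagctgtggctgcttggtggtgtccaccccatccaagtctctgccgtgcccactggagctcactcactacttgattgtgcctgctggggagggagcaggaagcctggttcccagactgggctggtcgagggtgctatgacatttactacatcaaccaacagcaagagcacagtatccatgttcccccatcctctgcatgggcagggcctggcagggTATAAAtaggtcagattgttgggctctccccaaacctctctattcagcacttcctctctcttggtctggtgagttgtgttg
S100a6: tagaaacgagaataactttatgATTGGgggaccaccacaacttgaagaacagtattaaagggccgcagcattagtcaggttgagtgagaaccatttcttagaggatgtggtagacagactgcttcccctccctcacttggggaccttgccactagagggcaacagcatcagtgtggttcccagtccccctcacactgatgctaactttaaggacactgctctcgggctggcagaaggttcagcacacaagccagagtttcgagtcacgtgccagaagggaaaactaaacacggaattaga
S100a8: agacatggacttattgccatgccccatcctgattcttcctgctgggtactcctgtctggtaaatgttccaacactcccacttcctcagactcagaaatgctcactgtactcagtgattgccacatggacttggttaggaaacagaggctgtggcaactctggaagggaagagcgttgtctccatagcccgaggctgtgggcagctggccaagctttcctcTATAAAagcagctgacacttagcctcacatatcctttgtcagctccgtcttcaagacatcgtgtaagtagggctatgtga
S100a11: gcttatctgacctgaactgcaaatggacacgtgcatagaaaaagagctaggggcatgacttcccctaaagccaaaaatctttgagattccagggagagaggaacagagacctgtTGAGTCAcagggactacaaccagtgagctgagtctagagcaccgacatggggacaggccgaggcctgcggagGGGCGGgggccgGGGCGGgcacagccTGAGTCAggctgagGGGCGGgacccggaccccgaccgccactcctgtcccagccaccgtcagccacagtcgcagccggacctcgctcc
The S100a1 and S100a13 windows share 204 bases, read on opposite strands, and hold none of the 4 motifs. S100a4 and S100a8 hold a TATA box, which S100a9 does too. S100a6 has a reversed CCAAT, and S100a11 has 3 GC boxes and 2 AP-1 motifs. A match of letters is a description and not evidence of binding.

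Transcripts of S100a4, S100a6, S100a10 and S100a13 rose in Dnm2 wt/K562E soleus and no tested member fell. Thus 4 of the 8 tested members rose, where 22.2% of all tested genes rose, and 0 fell, where 21.7% of all genes fell (edgeR). At an unadjusted p under 0.05, 5 members were higher, the 4 above and S100a11, and 1 was lower, S100a1. No share over all genes was taken at that limit. DESeq2 called 5 members higher, the 4 above and S100a8, and 1 lower, S100a1, beside 3300 higher and 3209 lower over all genes. For edgeR's exact test the members were 4 higher and 0 lower, beside 3226 and 3047 over all genes. With the study's additional limit of a log2 fold change of 0.58, the counts were again 4 and 0, against 12.9% of all genes higher and 7.85% lower. In the 4 genes that rose, every mutant mouse was above every control mouse, an ordering found in 20.6% of tested genes (20.5% for the opposite order). The median log2 fold change of the tested members was 0.57, beside 0.0074 over all tested genes. In bulk muscle, fewer cells of a type and less RNA per cell cannot be told apart, and neither can more cells and more RNA per cell.

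**Figure D1:**
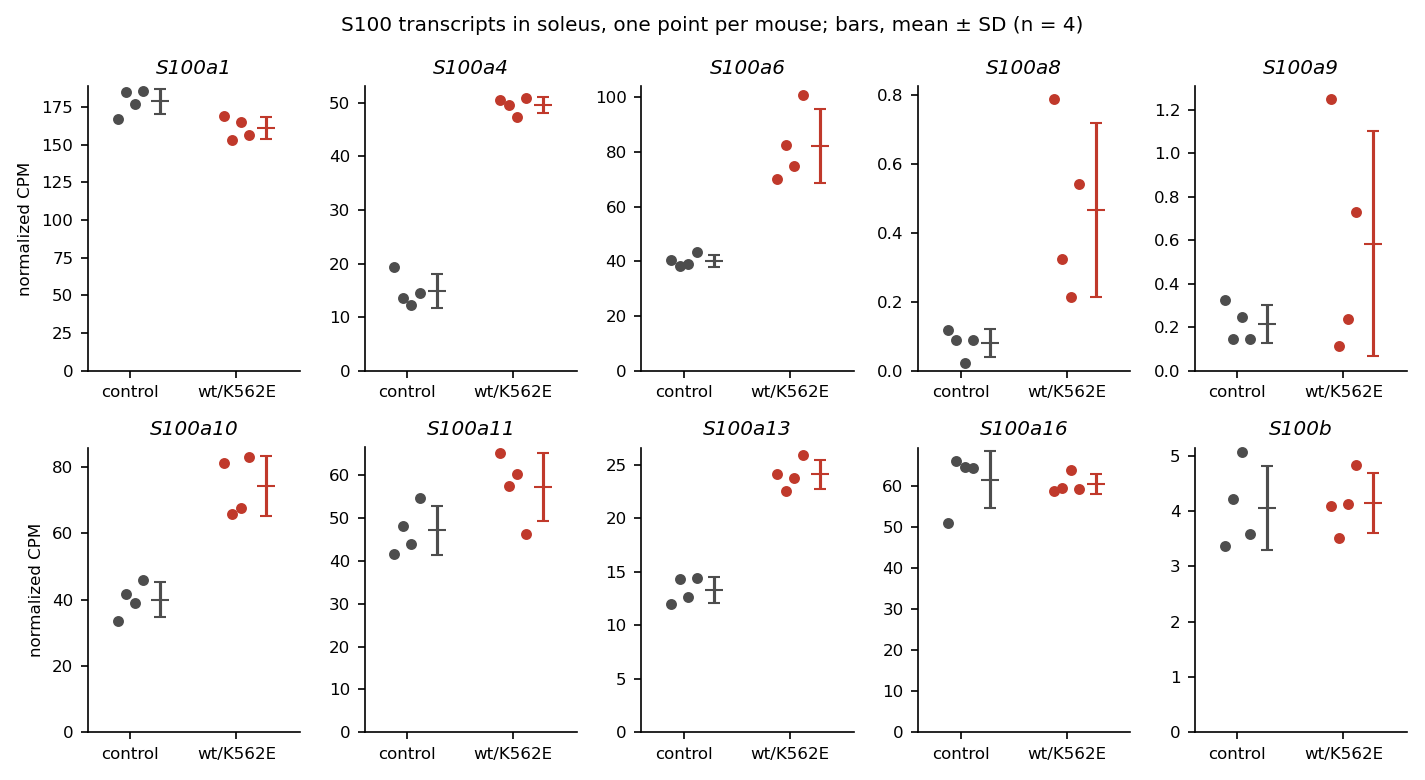
Normalized CPM (y axis, from 0, its own scale per gene) of the 10 S100 genes, with 4 control and 4 Dnm2 wt/K562E mice as points and the mean ± SD beside them. The genotypes are apart for S100a4, S100a6, S100a8, S100a10 and S100a13 and overlap for the other 5.

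S100a4, a protein of motile cells that binds nonmuscle myosin, had the largest fold change of the tested members. Control mice 1 to 4 had 19.5, 13.5, 12.2 and 14.6 normalized CPM of S100a4, and mutant mice 1 to 4 had 50.4, 49.6, 47.3 and 50.9. The mutant mice lay close together, while control 1 was the highest control. S100a4 was thus 3.32-fold higher in mutant mice (log2 fold change 1.73 ± 0.12 SE, adjusted p = 2.5e-06, edgeR). The S100a4 gene (ENSMUSG00000001020, chr3:90603771-90606045, 3 exon blocks) shares exon bases on the same strand with the predicted gene Gm42674. Of its 31-base stretches, 49.2% also occur in Gm42674, and reads overlapping several genes were counted for each. Gm42674 had 18.5 CPM in control 1 and 47.7 in mutant 1, nearly the S100a4 values, so the counts of these genes are largely of the same reads.

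S100a6, or calcyclin, is a partner of annexins and of the ubiquitin ligase factor Cacybp. It had 40.4, 38.3, 38.9 and 43.3 CPM in the control mice and 70.1, 82.6, 74.7 and 100.9 in the mutant mice. Mutant 4 was the highest, and the lowest mutant was still well above the highest control. S100a6 rose 2.04-fold (log2 fold change 1.03 ± 0.11 SE, adjusted p = 2.6e-05, edgeR).

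S100a10, also called p11, does not need calcium to bind and forms a complex with annexin A2 at the membrane. Its levels were 33.5, 41.7, 38.9 and 45.9 CPM in controls, and 81.1, 65.6, 67.5 and 83.0 CPM in mutants. Mutants 1 and 4 were above mutants 2 and 3, and no values overlapped between the genotypes. The S100a10 transcript rose 1.86-fold (log2 fold change 0.89 ± 0.11 SE, adjusted p = 8.8e-05, edgeR).

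S100a13 takes part in the release of fibroblast growth factor 1 from cells by a route that bypasses the usual secretory path. S100a13 was measured at 11.9, 14.3, 12.6 and 14.4 CPM in control mice and at 24.1, 22.5, 23.7 and 25.9 CPM in mutant mice. Both groups were narrow and did not overlap. The increase was 1.81-fold (log2 fold change 0.85 ± 0.08 SE, adjusted p = 2.1e-05, edgeR).

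S100a1, the member that acts on the calcium machinery of muscle fibres, did not pass the test and its estimate was slightly lower. The control mice had 167, 185, 177 and 185 CPM, and the mutant mice 169, 153, 165 and 157. Only mutant 1 was within the range of the controls. The log2 fold change was -0.15 ± 0.06 SE (adjusted p = 0.059, edgeR). Without control 1 the gene fell, with a log2 fold change of -0.19 and an adjusted p of 0.025, and DESeq2 gave -0.16 (adjusted p = 0.049). With scaling by library size alone, under which the median of all genes was 0.22, its estimate turned to 0.061.

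Since S100a1 and S100a13 start from the same short region, their ratio within each mouse was also taken, which needs no scaling between mice. The log2 ratio of S100a13 to S100a1 counts was -3.81, -3.69, -3.81 and -3.69 in control mice and -2.81, -2.76, -2.80 and -2.60 in mutant mice. Its mean went from -3.75 ± 0.07 (SD, n = 4) to -2.74 ± 0.10 (SD, n = 4), a difference of 1.01. For the other neighbours, the log2 ratio of S100a10 to S100a11 was between -0.31 and -0.18 in controls and between 0.16 and 0.85 in mutants. Its mean differed by 0.62, and mutant 4 was the highest. These 2 pairs were chosen after the values were seen, so the ratios are given without a test.

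S100a11, which binds annexin A1, did not pass the test. Control mice had 41.6, 48.2, 44.0 and 54.5 CPM and mutant mice 65.0, 57.4, 60.2 and 46.2. Mutant mice 1 to 3 were above all controls, and mutant 4 was within the control range. The log2 fold change was 0.28 ± 0.11 SE (adjusted p = 0.063, edgeR), and its 95% interval ran from 0.03 to 0.53. Leaving out mutant 4 gave 0.37 (adjusted p = 0.013), and leaving out control 4 gave 0.35 (adjusted p = 0.029), both past the test. Of the 31-base stretches of S100a11, 48.9% also occur in the pseudogenes Gm12854, Gm7665 and Gm29240, and reads of low mapping quality were not counted, so its level may be underestimated in all mice.

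Neither S100a16 nor S100b passed the test. S100a16, a widely expressed member that was the second most counted in control muscle, had 51.1, 65.9, 64.5 and 64.4 CPM in control mice and 58.7, 59.6, 63.9 and 59.3 in mutant mice. The mutant values fell between control 1 and the other controls. Its log2 fold change was -0.03 ± 0.08 SE (adjusted p = 0.82, edgeR), with a 95% interval from -0.21 to 0.16. S100b, the glial member, had 3.37, 4.22, 5.06 and 3.59 CPM in control mice and 4.10, 3.51, 4.13 and 4.84 in mutant mice. The genotypes overlapped throughout, with a log2 fold change of 0.02 ± 0.17 SE (adjusted p = 0.92, edgeR) and a 95% interval from -0.35 to 0.40. Of 10 Schwann cell markers, Egr2 rose, Mbp fell and 8 did not pass the test (over all tested genes, 22.2% rose and 21.7% fell). Their summed level was 290 to 325 CPM in control mice and 286 to 341 CPM in mutant mice.

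**Figure D2:**
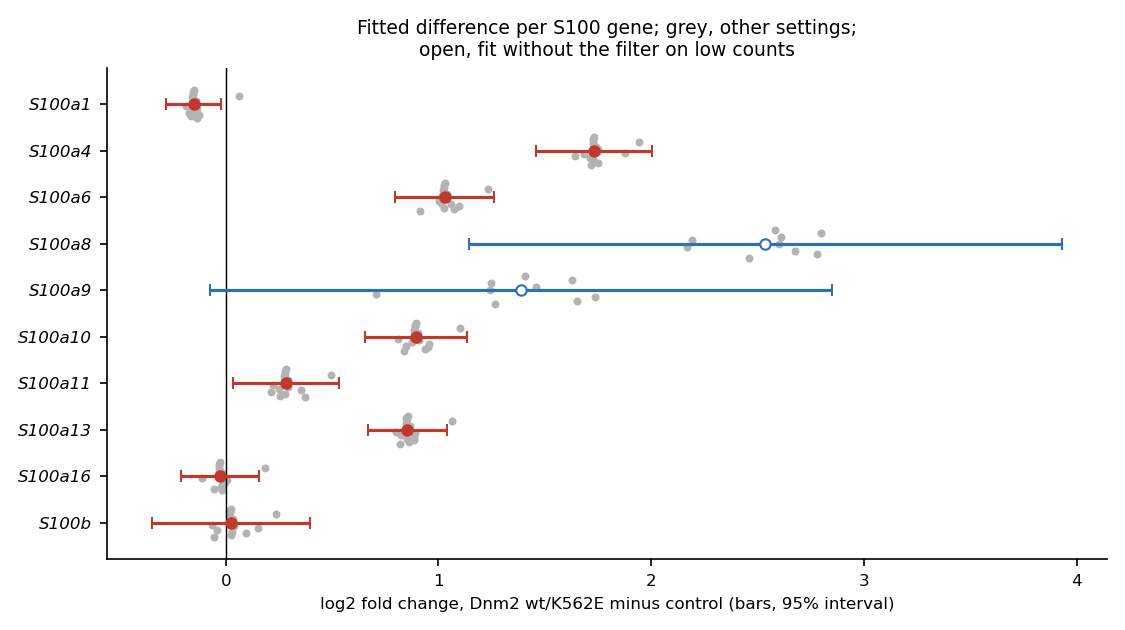
Fitted log2 fold change (x axis) of each S100 gene, Dnm2 wt/K562E minus control, with its 95% interval. Filled points are the 8 tested genes, open points are S100a8 and S100a9 from a fit without the filter on low counts, and grey points are other settings of the analysis. The intervals of S100a4, S100a6, S100a10 and S100a13 start at 0.65 or higher, and those of S100a16, S100b and S100a9 include 0. Those of S100a1 and S100a11 leave out 0, although neither gene passed the test after adjustment.

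S100a8 and S100a9, which together form calprotectin of neutrophils, were near the limit of detection. Counts of S100a8 were 4, 3, 1 and 3 reads in control mice and 29, 14, 9 and 20 reads in mutant mice. Every mutant mouse was above every control mouse, from libraries of 33407430 to 48832814 counts. S100a9 had 11, 5, 11 and 5 reads in controls and 46, 5, 10 and 27 in mutants. Mutants 1 and 4 alone were above the controls in S100a9. Both genes missed the filter on low counts because the controls and some mutants were so low, and they have no value in the main test. In a fit without that filter, S100a8 was 5.80-fold higher (log2 fold change 2.54 ± 0.64 SE, adjusted p = 0.0079, edgeR) and S100a9 did not pass (1.39 ± 0.67 SE, adjusted p = 0.14, edgeR). Leaving out mutant 2 brought S100a9 past the test, with 1.74 and an adjusted p of 0.045.

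Among 14 neutrophil markers, only 4 had enough reads to test. None rose (edgeR's quasi-likelihood test), and Mmp9, a matrix protease made by many cells, fell. Over all tested genes, 22.2% rose and 21.7% fell. At an unadjusted p under 0.05, 1 was higher, the receptor Csf3r, whose log2 fold change of 1.04 had an adjusted p of 0.066 in this fit and of 0.038 in edgeR's exact test and in DESeq2. DESeq2 also called Ltf higher, which had 1 to 5 reads in controls and 7 to 35 in mutants. Ltf was under the filter of the main test. Ly6g, which defines mouse neutrophils, was at 0 reads in all 8 mice, and a count of 0 allows up to 3 reads (counting error only). Mpo, Elane, Camp and Stfa2 had 0 to 3 reads in each mouse, and Ngp had 4 reads in mutant 1 and 0 in the others. The summed level of the markers was 3.21 to 5.36 CPM in controls and 3.37 to 7.31 CPM in mutants. Mutant 1, the highest for S100a8 and S100a9, was also the highest for the neutrophil receptors Csf3r and Cxcr2. Csf3r had 114 reads there, against 18 to 45 in controls. Cxcr2 had 33, against 0 to 9 in controls and 1, 6 and 8 in mutants 2 to 4. Retnlg too was highest in mutant 1 (23 reads). Other markers were not: by normalized CPM, Ltf was highest in mutant 2 (35 reads), Lcn2 and Mmp9 in control 4 and Mmp8 in control 3. Being highest in mutant 1 was not particular to neutrophil genes, as all 7 macrophage markers described below were highest there too. All 5 red blood cell markers fell, where 21.7% of all tested genes fell. Their summed level was 525 to 894 CPM in controls and 248 to 517 CPM in mutants.

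**Figure D3:**
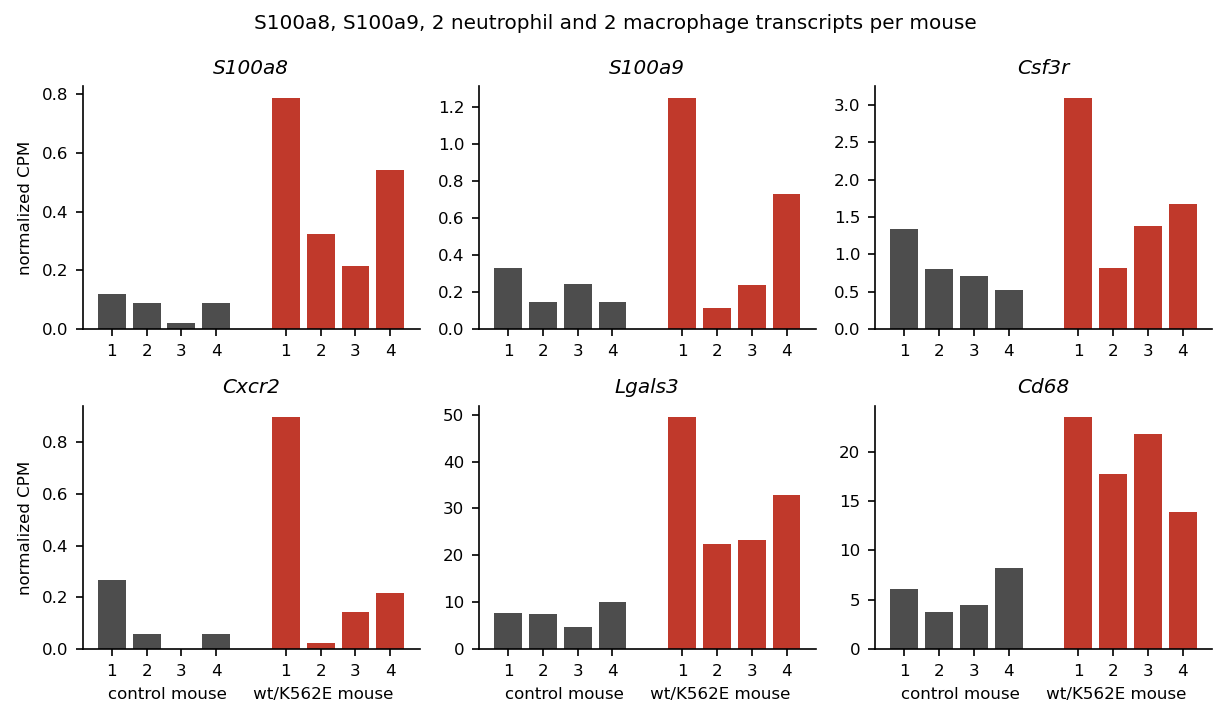
Normalized CPM (y axis, from 0) of S100a8, S100a9, the neutrophil receptors Csf3r and Cxcr2 and the macrophage genes Lgals3 and Cd68 in each control and Dnm2 wt/K562E mouse (bars, 1 mouse each). Mutant 1 is the highest in all 6 panels, and all mutant mice are above all controls for S100a8, Lgals3 and Cd68. The receptors are picked from the neutrophil markers, of which Ltf, Lcn2, Mmp8 and Mmp9, not shown, are highest in other mice.

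Levels of different genes were compared per kilobase of annotated exon, on the normalized CPM scale. In control muscle S100a1 was highest with 257 ± 12.3 CPM per kb (SD, n = 4), followed by S100a11 with 92.1 ± 11.1. S100a16 (38.0 ± 4.31), S100a10 (32.99 ± 4.28), S100a6 (29.4 ± 1.63) and S100a4 (25.6 ± 5.40) came next, and each overlapped with its neighbour in this order. S100a13 with 18.6 ± 1.72 and S100b with 2.74 ± 0.511 lay apart below them, and S100a9 and S100a8 were under 1 CPM per kb. In mutant muscle S100a1 (232 ± 10.5) and S100a11 (112 ± 15.6) were again on top. S100a4, now 84.9 ± 2.70, moved from the sixth to the third place, above S100a10 (61.3 ± 7.43) and S100a6 (60.0 ± 9.94), which overlapped. S100a1 thus made up 51.8% of the summed level of the 10 genes in controls (50.3% to 52.7%) and 37.1% in mutants (36.2% to 38.2%), and S100a4 5.19% and 13.6%. The order depended on the length used. With the median length of coding transcripts in place of all exon bases, S100a6 had 137 CPM per kb in mutants and S100a10 had 128. Both were above S100a4 with 119, and S100a11 with 112 lay below S100a4. S100a1 kept the first place in both genotypes, but its share was then 44.5% in controls and 29.9% in mutants.

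**Figure D4:**
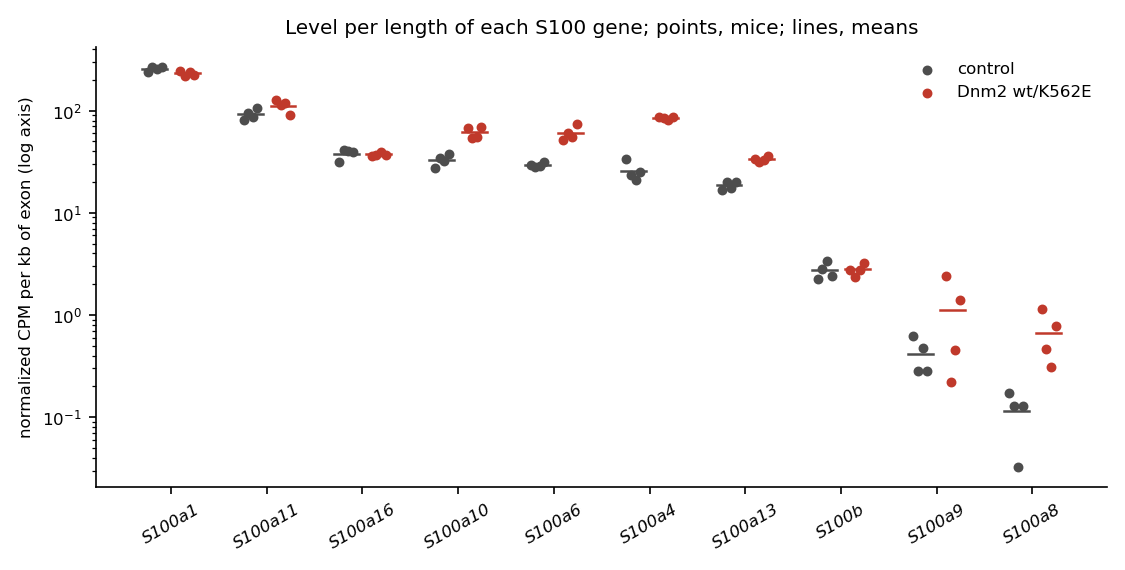
Normalized CPM per kb of annotated exon (log axis) of the 10 S100 genes, ordered by their mean in controls, with mice as points and means as lines. S100a1 is the highest in both genotypes (257 and 232 CPM per kb), and S100a4 goes from 25.6 to 84.9.

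Along chromosome 3, S100a13 rose and S100a1, the gene before it, did not pass the test. After S100a13 come S100a14, with 4 reads in all mice together, and S100a16, which did not pass. Gm42674 starts before S100a4 and overlaps it on the same strand. Its rise (log2 fold change 1.75, adjusted p = 2.8e-06, edgeR) is largely of the same reads as that of S100a4. S100a4 and S100a6 rose on either side of S100a5, which had 4 reads in all mice together. Of the other family genes with a row, S100a7a was tested and did not pass (log2 fold change 0.85, adjusted p = 0.21, edgeR), with 3, 3, 14 and 18 reads in controls and 15, 19, 20 and 20 in mutants. S100a3 had 3, 2, 0 and 1 reads in controls and 9, 20, 6 and 11 in mutants, too few for the test. DESeq2 tested S100a3 and called it higher. Most of its reads came from the mutant mice, so its counts are given without a test value. The exons of S100a3 also overlap Gm42674. S100a2, S100a5, S100a14, S100g and S100z had 0 to 3 reads in each mouse.

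**Figure D5:**
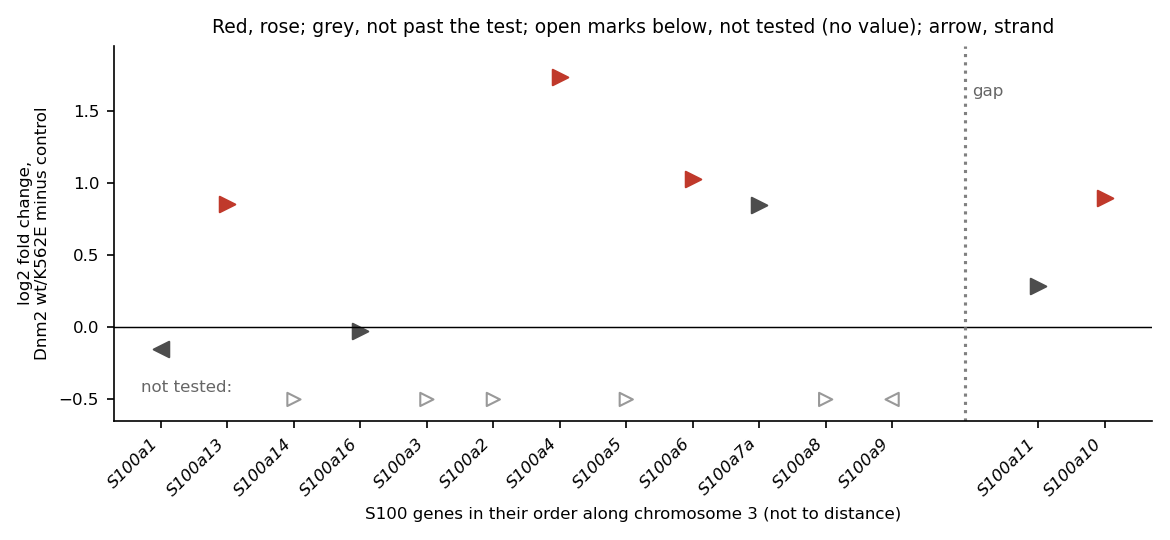
Log2 fold change (y axis) of S100 genes in their order along chromosome 3 (x axis, not to distance, with arrows for the strand and a dotted line for the gap of 2.82 Mb). Red genes rose, grey genes did not pass the test, and open marks are genes not tested, drawn below without a value.

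Among 6 genes for receptors of extracellular S100 proteins, 2 rose, 3 fell and 1 did not pass, with a median log2 fold change of -0.02. Beside this, 22.2% of all tested genes rose and 21.7% fell. Ager, which encodes RAGE, had 8, 4, 0 and 5 reads in controls and 16, 20, 13 and 21 in mutants. It is counted among the 2 that rose and in the median. However, it passed the filter only through the mutant mice, so its counts are given without a test value. Fgfr1 rose by 0.42 on the log2 scale. Bsg, Cd36 and Mcam, each described as a binding site of S100a8 or S100a9, fell with log2 fold changes of -0.33, -0.44 and -0.57. Tlr4, the remaining receptor, was 0.30 higher on the log2 scale and did not pass (adjusted p = 0.10, edgeR).

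Of 16 intracellular partners of S100 proteins, 6 rose, 4 fell and 6 did not pass the test, with a median log2 fold change of 0.10. Over all tested genes, 22.2% rose and 21.7% fell. Annexins A1, A2 and A5 rose, with log2 fold changes of 1.21, 0.59 and 0.66, and so did Ahnak (0.26), a scaffold of the annexin A2 and S100a10 complex. Annexins A6 and A11 did not pass, with log2 fold changes of 0.08 and -0.16 (adjusted p = 0.44 and 0.052, edgeR). For annexin A11 every mutant mouse was below every control mouse, an order found in 20.5% of tested genes. Anxa2 was at 122 ± 21.9 CPM in controls and 184 ± 14.8 CPM in mutants (SD, n = 4), and Anxa1 at 46.3 ± 5.29 and 107 ± 8.87. The partners that fell include targets of S100a1, namely the ryanodine receptor Ryr1 (-0.63), the calcium pump Atp2a2 (-0.54) and titin, Ttn (-0.42). Sugt1, a cochaperone bound by S100a6, fell as well (-0.27). Fgf1 and Trp53 rose by 0.34 and 0.32. Cacybp, another partner of S100a6, and Myh9, the nonmuscle myosin bound by S100a4, had log2 fold changes of 0.01 and 0.12 and did not pass. Capzb and Stk38, the remaining partners of the list, did not pass either. Their log2 fold changes were -0.04 and 0.19 (adjusted p = 0.60 and 0.11, edgeR).

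Of 21 tested genes among 24 other EF-hand sensors and buffers, 11 rose, 3 fell and 7 did not pass, with a median log2 fold change of 0.18. The shares over all tested genes were 22.2% that rose and 21.7% that fell. Pvalb, the calcium buffer of fast fibres, fell the most, from 342 to 946 CPM in controls to 23.5 to 76.9 CPM in mutants (log2 fold change -3.34). Gca and Calm3 fell by 1.46 and 0.23 on the log2 scale. Rcn1, Rcn2, Rcn3 and Calu, calcium-binding proteins of the secretory path, all rose, by 0.39 to 0.95.

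Lists of markers of other cell types differed in direction, where 22.2% of all tested genes rose and 21.7% fell. All 7 macrophage markers rose, with a summed level of 72.8 to 135 CPM in controls and 179 to 296 CPM in mutants. Of 10 fibroblast markers, 8 rose, Ly6a fell and Pdgfrb did not pass, with summed levels of 2289 to 3316 and 4516 to 5724 CPM. Of 6 tendon markers 5 rose, with sums of 327 to 737 and 933 to 1292 CPM. No marker of these 3 lists was at 0. None of 6 adipocyte markers passed edgeR's test, its exact test or DESeq2, 0 at an unadjusted p under 0.05 (sums of 475 to 926 and 560 to 705 CPM), while 5 of 6 endothelial markers and 7 of 9 soleus fibre markers fell. The fibre markers, among them Myh7 and Myh2 of slow and oxidative fibres, were abundant in every mouse. The part of these cell types in the S100 differences was not tested.

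The 3 tested genes with a pattern over the 8 mice most like S100a4 were Gm42674, Angptl2 and Pdgfrl, with root mean square differences in centred log2 CPM of 0.015, 0.097 and 0.16. For S100a1 they were Pcbp1, Gm28635 and Wbp4 (0.032, 0.032 and 0.036), and for S100a8 they were Lgals3, Emb and Nlrc4 (0.27, 0.27 and 0.29). Lgals3, or galectin-3, had 7.75, 7.48, 4.73 and 10.1 CPM in controls and 49.4, 22.4, 23.4 and 32.9 CPM in mutants, with mutants 1 and 4 highest as in S100a8. Dnm2 itself was 59.2 to 68.8 CPM in controls and 70.3 to 76.1 CPM in mutants (log2 fold change 0.15 ± 0.07 SE, adjusted p = 0.091, edgeR), and gene counts cannot tell its alleles apart.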

How the data were processed

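RNA of soleus muscle from 4 control and 4 Dnm2 wt/K562E mice was sequenced. The authors trimmed reads with Trimmomatic 0.33, aligned them with STAR 2.5.1b to GRCm38.p5 with Ensembl genes and counted them per gene with featureCounts. The deposited values are raw counts per gene and mouse, not normalized, and total 33407430 to 48832814 counts per library. Reads of low mapping quality were left out. Among the reads kept, any with several alignments was set to count where the primary one lay, and all genes under a read received it. These settings affect S100a4 and S100a11. Whether strand was used is not given in the sources used here. The labels name a stranded total RNA kit and the paper's methods a poly A kit.

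Symbols and positions came from GENCODE M21, which matched 22647 of 22880 gene IDs. Genes were tested if they passed filterByExpr at its minimum count of 10 and minimum total of 15, which left 14001. Scaling by TMM and the quasi-likelihood test used edgeR 4.0.16 in R 4.3.3 with genotype as the only term and Benjamini-Hochberg adjustment. Log2 CPM for profiles used a prior count of 2. The script was tested on simulated data. The labels give no batch. No pair of libraries agreed within counting noise, so each mouse is 1 replicate.

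The members and gene lists were chosen with earlier results of these data known. Named genes are the members, other S100 genes, Dnm2, list genes and the closest profiles of S100a4, S100a1 and S100a8. The lists are S100 receptors, partners, other EF-hand genes, and markers of neutrophils, red blood cells, macrophages, fibroblasts, Schwann cells, adipocytes, tendon, endothelium and soleus fibres. A gene of the EF-hand list is not reported here. Alternatives were edgeR's exact test, DESeq2 1.42.0, other scalings and filters, mitochondrial genes left out, a replicate block and each library left out. The gene length, the fits of S100a8 and S100a9 without the filter, the ratios, and Sprr1a and Lce1f were chosen after seeing the data.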

Additional observations from a re-analysis of the deposited data

Results flagged for a closer look

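In 7 of 70 groups of 4 mice, examined over 35 genes, 1 mouse lay far from the other 3, by Dixon's test at the 95% level. Chance sets apart about 1 in 20 groups. Among the S100 genes this was S100a16, where control 1 had 51.1 normalized CPM and the other controls 64.4 to 65.9. Among the receptors, Cd36 was lowest in mutant 1 with 772 CPM (others 852 to 863) and Fgfr1 was lowest in mutant 4 with 112 CPM (others 131 to 134). Among the partners, Anxa1 was highest in control 4 with 54.2 CPM (others 42.5 to 44.4), Cacybp was lowest in control 1 with 49.7 CPM (others 53.8 to 54.1), and Fgf1 was highest in mutant 3 with 167 CPM (others 146 to 149). Dnm2 was lowest in control 3 with 59.2 CPM, where the other controls had 68.5 to 68.8.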

How the results depend on the processing

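S100a4, S100a6, S100a10 and S100a13 rose under all 17 alternatives, with log2 fold changes of 1.64 to 1.94, 0.91 to 1.24, 0.81 to 1.10 and 0.80 to 1.06. The count of S100 genes that rose was 4 to 6 and of those that fell 0 to 1, and S100a1 was the 1 lower in DESeq2 and without control 1. Over all genes, library size alone gave 5608 higher and 1504 lower, against 3103 and 3036, and the limit of 0.58 gave 1806 and 1099, with 14 list genes lower against 30. Leaving out 1 mouse at a time gave 4 to 6 S100 genes higher and 0 to 1 lower. Of the 8 tested members, only S100a11 joined the 4 there, without control 4 or without mutant 4. Any other added gene was S100a8 or S100a9, whose low counts kept them out of the main test. S100a8, with 1 to 4 reads in controls, can enter such a test only through the mutant mice. Counts above 4 are therefore not of the same set of tested genes. Estimates near 0 changed sign, each without passing the test. These were S100a1 (0.061) and S100a16 (0.18) with library size alone, S100a16 (0.0047) without control 2, and S100b without control 1 (-0.065), without control 4 (-0.04) and without mutant 4 (-0.057). Over all single mice left out, S100a16 ranged from -0.11 to 0.0047 and S100b from -0.065 to 0.15. With library size alone, the median log2 fold change of all tested genes was 0.22, against 0.0074 with TMM. The cause of the changes of sign was not tested. S100a8, in fits without the filter, passed in all 9 alternatives, and S100a9 in 1 of 9. With a replicate block by the number in the titles or in the descriptions, 4 S100 genes rose and 0 fell, and the block changed the call of no member. The numbers showed no clear pairing, as deviations of same-numbered mice had correlations of -0.21 to 0.01 (titles) and -0.17 to 0.18 (descriptions). So few correlations cannot exclude a pairing. Depth limits S100a8 and S100a9, with 1 to 46 reads per library.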

Other observations

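The gap between S100a9 and S100a11 holds genes of the epidermal differentiation complex, which serve the outer layers of skin. Of the 59 counted genes there, 43 were at 0 reads in all 8 mice and 3 passed the filter on low counts. Sprr1a, which encodes a small proline-rich protein, had 0 reads in each control mouse and 49, 51, 117 and 70 reads in mutant mice 1 to 4. Its level in mutants, 1.80 ± 0.727 normalized CPM (SD, n = 4), was at least 21.6-fold higher than 3 reads in each control library. Lce1f, a late cornified envelope gene, had 0 reads in each control and 28, 30, 37 and 19 reads in mutants, at least 8.54-fold higher by the same measure. Both passed the filter on low counts only through the mutant mice, so their counts are given without a test. Gm9774, the third, had 60 to 86 reads in controls and 70 to 91 in mutants and did not pass the test (log2 fold change -0.02, adjusted p = 0.92, edgeR). These genes were chosen after their values were seen.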
